A study of Mus musculus with 7 samples.

Results

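The respiratory chain genes considered here are the protein-coding genes whose symbols start with mt-, Nduf, Sdha to Sdhd, Uqcr, Cox4 to Cox8 or Atp5. In the RNA sequencing of damaged mouse utricles, 110 protein-coding genes met that rule and 104 of them had at least 10 counts in every one of the 7 libraries. Of the 104, 92 were nuclear and 12 were encoded in the mitochondrial genome, out of 17155 genes tested in all. The 6 left out for low counts were Cox6a2, Cox7b2, Cox8b, Cox8c, Ndufb11b and mt-Atp8. The utricle is a balance organ of the inner ear whose sensory epithelium holds hair cells and supporting cells.

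All libraries came from explants of wild-type C57BL/6J utricles taken at postnatal day 2, treated with 2 mM gentamicin for 24 h to damage hair cells, and collected on day 5 after injury. Gent+Fos OE utricles (4 libraries) also received a Fos-coding AAV-PHP.eB for 48 h, in which the CMV promoter drives Fos according to the methods. Gent utricles (3 libraries) are labelled with gentamicin only. The study describes a control AAV carrying EGFP for its overexpression experiments and names a control AAV group for the network of genes from this comparison, so whether the Gent libraries had that virus is not settled. RNA came from pools of utricles, given as 12 per group without saying plainly whether a group is 1 library. All p-values measure the spread between such libraries, and the methods state 3 replicates per condition where the labels list 4 and 3. In these bulk samples, fewer cells of a type and less RNA per cell cannot be told apart.

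The respiratory chain sits in the inner mitochondrial membrane. Complex I and complex II pass electrons from NADH and succinate to ubiquinone, complex III passes them on to cytochrome c, complex IV passes them to oxygen, and complex V uses the resulting proton gradient to make ATP. Complexes I, III, IV and V combine a few core subunits made from mitochondrial DNA with many subunits made from nuclear genes, whereas complex II is wholly nuclear. Transcription of many nuclear subunit genes is known to depend on the factors NRF1, NRF2 (an ETS factor also called GABP) and YY1.

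The promoters below are those of Sdhb, Atp5f1e and Ndufaf4, and of Cox6b2, the nuclear member whose fold change had the opposite sign. They run from 250 bases before to 50 bases after the start in RefSeq on GRCm38.p6, 5′ to 3′ on the gene's strand. Capitals mark any match on either strand to NRF1 (GCATGCGC), ETS (CCGGAAG), YY1 (AAGATGGCG), SP1 (GGGCGG), CREB (TGACGTCA) or AP-1 (TGANTCA).
Sdhb, chr4:140961021-140961320, plus strand: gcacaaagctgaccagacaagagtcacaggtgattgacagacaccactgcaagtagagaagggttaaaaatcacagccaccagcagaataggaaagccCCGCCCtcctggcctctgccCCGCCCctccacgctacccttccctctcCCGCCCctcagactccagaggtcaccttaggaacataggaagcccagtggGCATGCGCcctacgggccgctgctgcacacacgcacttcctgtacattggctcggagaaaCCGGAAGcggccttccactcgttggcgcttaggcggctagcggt
Atp5f1e, chr2:174464052-174464351, minus strand: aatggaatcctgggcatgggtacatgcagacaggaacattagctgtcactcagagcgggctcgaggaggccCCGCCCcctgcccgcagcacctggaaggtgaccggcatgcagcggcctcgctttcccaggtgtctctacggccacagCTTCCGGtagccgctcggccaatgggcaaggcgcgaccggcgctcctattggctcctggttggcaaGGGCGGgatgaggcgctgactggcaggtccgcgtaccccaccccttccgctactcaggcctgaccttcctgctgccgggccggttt
Ndufaf4, chr4:24897833-24898132, plus strand: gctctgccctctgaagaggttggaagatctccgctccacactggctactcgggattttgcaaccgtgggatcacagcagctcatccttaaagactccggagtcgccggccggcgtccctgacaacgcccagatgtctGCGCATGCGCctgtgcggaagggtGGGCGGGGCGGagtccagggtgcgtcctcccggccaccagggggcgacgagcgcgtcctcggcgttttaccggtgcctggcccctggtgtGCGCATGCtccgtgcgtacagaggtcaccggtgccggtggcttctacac
Cox6b2, chr7:4753045-4753344, minus strand: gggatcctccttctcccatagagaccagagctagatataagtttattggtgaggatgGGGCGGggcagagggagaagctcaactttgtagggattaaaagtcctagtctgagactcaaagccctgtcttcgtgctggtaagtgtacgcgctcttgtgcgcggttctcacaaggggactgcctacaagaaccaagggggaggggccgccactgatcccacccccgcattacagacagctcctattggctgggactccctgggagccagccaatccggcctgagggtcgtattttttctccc

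A RefSeq promoter was at hand for 74 of the 92 nuclear members. The NRF1 letters were in 12 of the 74 (16.2%), against 3.01% of the 26951 other genes. The ETS letters were in 18 members (24.3%, other genes 9.89%) and the YY1 letters in 8 (10.8%, other genes 1.61%). The SP1 letters were in 33 members (44.6%, other genes 38.2%), the CREB letters in 4 (5.41%, other genes 2.02%) and the AP-1 letters, the kind of site that FOS dimers bind, in 7 (9.46%, other genes 8.97%). These are matches of letters in the windows and carry no test. Ndufaf4 held 3 matches to the NRF1 letters, some of which overlap, and Sdhb held NRF1, ETS and SP1 letters. Atp5f1e held ETS and SP1 letters, and Cox6b2 held SP1 letters only. Some members with a fold change of the other sign also held SP1 letters only, or none of the letters. Any link between letters and fold change was not tested.

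The libraries held 27879889 to 34335214 counts. Fos itself, as a check of the labels, had 151, 151, 167 and 149 CPM (read counts scaled to the size of the library, with TMM factors) in Gent+Fos OE and 39.5, 40.6 and 34.6 in Gent, with a log2 fold change (log2FC, Gent+Fos OE against Gent) of 2.01 ± 0.13 (SE) and an edgeR adjusted p of 0.000142. Genes counted as called where the log2FC exceeded 0.25 in either direction and the adjusted p was below 0.01. By that rule 71 genes (0.414% of those tested) were called, 23 higher (0.134%) and 48 lower (0.28%). The library Gent replicate 2, was unlike the rest and was the highest of the 7 for 32.4% of all genes. Its log2 levels went against gene length with a Spearman correlation of −0.496 over genes, where the other libraries had values from −0.221 (Gent replicate 3) to 0.325 (Gent+Fos OE replicate 1). Values without it are given beside the main results below.

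Nuclear members had lower mean levels with Fos overexpression almost throughout, but no member passed the test. The median log2FC of the 92 nuclear members was −0.48, beside −0.001 over all genes tested, and 91 of 92 had a negative value. In edgeR (quasi-likelihood test, p adjusted over all genes), 0 nuclear members were called in either direction, and the smallest adjusted p was 0.0516. At an unadjusted p under 0.05 and the same fold limit, 58 nuclear members (63.0%) were lower, against 13.4% of all genes, and 0 were higher, against 11.1%. The groups did not overlap for 32 nuclear members (34.8%), all lower in Gent+Fos OE, against 12.2% of all genes lower and 11.3% higher. A two-sided exact permutation test on log2 CPM, over 35 placements of the libraries, cannot go below 0.0286. It gave that value for Sdhb, Ndufb7 and Atp5f1e, whose groups did not overlap, and 0.0857 for Ndufa4l2. By the same limits, limma-voom called 0 nuclear members (0.379% of all genes), DESeq2 called 1, Ndufa4l2 with an adjusted p of 0.000476 (2.86% of all genes), and limma-voom with sample quality weights called 2, Sdhb lower and Cox6b2 higher (5.6% of all genes).

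Much of the size of the difference came with Gent replicate 2. It was the highest library for 89 of the 92 nuclear members (96.7%), the exceptions being Ndufs1, Sdha and Ndufaf6. Its nuclear members lay a median of 0.75 log2 units above the mean of the other Gent libraries, where all genes lay 0.01 above. Without it the nuclear median was −0.22, with 89 of 92 still negative, 24 lower at the unadjusted limit (9.38% of all genes) and 1 higher (9.48% of all genes). The 4 Gent+Fos OE libraries were all below both other Gent libraries for 32 nuclear members (34.8%), where this held for 15.6% of all genes. Per library, the median deviation of nuclear members from their own means was −0.29, −0.31, −0.08 and −0.05 in Gent+Fos OE and −0.07, 0.77 and 0.12 in Gent. Gent replicate 1 thus lay among the Gent+Fos OE libraries. Reads of some members are uncertain, since 30 of 92 share exonic bases with another gene and some have windows copied exactly elsewhere. The most copied windows were in Atp5mc2 (87.5%) and Cox7c (68.3%), while 66 of 92 members had none.

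**Figure D1:**
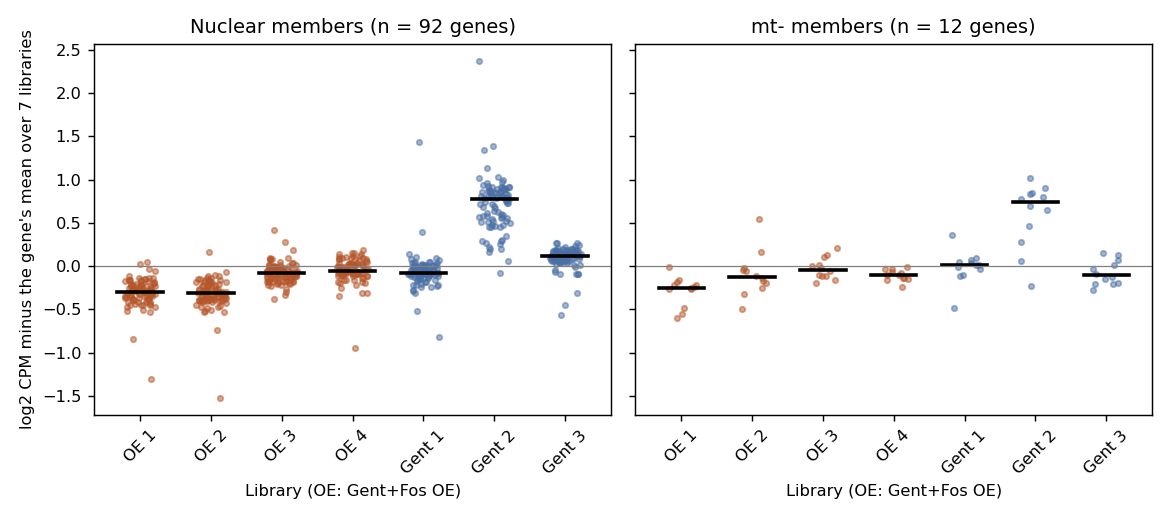
Each point is 1 member in 1 library, as its log2 CPM minus its mean over the 7 libraries, and black bars are medians. Nuclear members of Gent replicate 2 have a median of 0.77, and the other 6 libraries have medians between −0.31 and 0.12.

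Complex I, the largest complex, was represented by 39 nuclear members with an Nduf symbol, grouped here by symbol. They include Ndufa4, now known as a complex IV subunit, and its paralogue Ndufa4l2. All 39 had a negative log2FC (median −0.48, without Gent replicate 2 −0.24). With all libraries 24 of them passed the unadjusted limit (13.4% of all genes), and 13 without Gent replicate 2 (9.38% of all genes). The 37 other than Ndufa4 and Ndufa4l2 had the same medians, with 23 past that limit and 12 without Gent replicate 2. Ndufa4l2, known to be induced under low oxygen, had the lowest value and the smallest p of all members. It had 0.651, 0.551, 1.71 and 0.856 CPM in Gent+Fos OE and 4.72, 9.07 and 1.65 CPM in Gent. The third Gent library lay inside the range of Gent+Fos OE, so the groups overlapped. Its log2FC was −2.44 ± 0.54 (SE), with an adjusted p of 0.0516 in edgeR and −1.75 without Gent replicate 2. The gene lies at chr10:127514967-127517154 (mm10) and its lowest library held 18 counts.

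Ndufb7, an accessory subunit of the membrane arm, had 33.6, 29.2, 35.4 and 37.7 CPM in Gent+Fos OE and 41.0, 73.4 and 46.2 CPM in Gent. The groups did not overlap, its log2FC was −0.66 ± 0.19 (SE, −0.36 without Gent replicate 2) and its edgeR adjusted p was 0.105. At the other end, Ndufs1, the largest iron-sulfur subunit, had 75.9 to 84.8 CPM in Gent+Fos OE and 75.3 to 82.3 CPM in Gent, and a log2FC of −0.01 ± 0.11 (SE). Its sign turned under other scalings (0.002 with RLE factors). The 8 Ndufaf assembly factors help build complex I and are not part of it. They had a median of −0.34 (without Gent replicate 2 −0.22), from −0.22 for Ndufaf4 to −0.58 for Ndufaf3. Of the 8, 2 were lower at the unadjusted limit with all libraries (13.4% of all genes). That number was 0 without Gent replicate 2 (9.38% of all genes).

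Complex II, which also works in the citric acid cycle, had 4 members with a median of −0.31 (without Gent replicate 2 −0.27). With all libraries 3 of them passed the unadjusted limit (13.4% of all genes), and 2 without Gent replicate 2 (9.38% of all genes). Sdhb, its iron-sulfur subunit, had 70.5, 64.1, 74.9 and 72.5 CPM in Gent+Fos OE and 87.2, 147 and 97.3 CPM in Gent. Every Gent+Fos OE library was below every Gent library. The log2FC of Sdhb was −0.65 ± 0.17 (SE) with an edgeR adjusted p of 0.0859, and −0.39 without Gent replicate 2. Sdha, the flavoprotein subunit of the same complex, had 231, 239, 264 and 261 CPM in Gent+Fos OE and 258, 268 and 279 CPM in Gent. Its groups overlapped and its log2FC was −0.11 ± 0.12 (SE). Whether Sdha and Sdhb differed from each other in response was not tested.

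Complex III had 8 nuclear members with a median of −0.51 (without Gent replicate 2 −0.20). With all libraries 7 of them passed the unadjusted limit (13.4% of all genes), and 0 without Gent replicate 2 (9.38% of all genes). Uqcrq, a small subunit, had the lowest log2FC of the 8 at −0.64 ± 0.23 (SE) and Uqcrc2, a core subunit, the highest at −0.16 ± 0.13 (SE). These were −0.26 and −0.08 without Gent replicate 2. Uqcrq had 41.1 to 60.2 CPM in Gent+Fos OE and 58.5, 116 and 61.1 CPM in Gent, with overlapping groups.

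Complex V had 18 nuclear members, grouped by their Atp5 symbol and not by role, with a median of −0.52 (without Gent replicate 2 −0.21). With all libraries 13 of them passed the unadjusted limit (13.4% of all genes), and 5 without Gent replicate 2 (9.38% of all genes). Of the 18, 10 (55.6%) had groups that did not overlap, all lower, against 12.2% of all genes. Atp5f1e, the epsilon subunit of the catalytic head, had 63.1, 63.1, 72.9 and 79.0 CPM in Gent+Fos OE and 80.6, 161 and 90.6 CPM in Gent. Its log2FC was −0.67 ± 0.22 (SE, edgeR adjusted p = 0.121) and −0.31 without Gent replicate 2. Atp5f1a, the alpha subunit of the head, had the smallest difference of the complex, with 542 to 591 CPM in Gent+Fos OE and 614 to 692 CPM in Gent. Its groups did not overlap either, and its log2FC was −0.21 ± 0.11 (SE).

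Complex IV had 15 nuclear members, grouped by their Cox symbol and not by role, with a median of −0.59 (without Gent replicate 2 −0.25). With all libraries 9 were lower at the unadjusted limit (13.4% of all genes). Without Gent replicate 2, 4 were lower (9.38% of all genes) and 1 was higher (9.48% of all genes). Cox4i1, the common form of a subunit that regulates the enzyme, had 153, 135, 161 and 169 CPM in Gent+Fos OE and 168, 329 and 199 CPM in Gent. Only the highest Gent+Fos OE library passed the lowest Gent library, and the log2FC was −0.59 ± 0.21 (SE, edgeR adjusted p = 0.140), and −0.25 without Gent replicate 2. Its low-oxygen isoform Cox4i2 had 2.47 to 5.45 CPM in Gent+Fos OE and 4.24, 11.8 and 3.61 CPM in Gent, and a log2FC of −0.75 ± 0.41 (SE). Without Gent replicate 2 the value for Cox4i2 was −0.02. Cox5b-ps, protein-coding in GENCODE and a pseudogene in RefSeq, had the lowest log2FC of the complex at −0.88 ± 0.28 (SE), and −0.47 without Gent replicate 2. Of its 100-base windows, 29.1% occur elsewhere in the genome, so part of its reads may have been left out of the counts.

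Cox6b2, the isoform of Cox6b1 known from testis, was the exception among nuclear members. It had 21.6, 23.4, 27.9 and 23.2 CPM in Gent+Fos OE and 11.8, 29.0 and 15.3 CPM in Gent. Gent replicate 2 was again the highest library, and the other Gent libraries were below all 4 Gent+Fos OE libraries. The log2FC was 0.36 ± 0.26 (SE, edgeR adjusted p = 0.400), and 0.82 without Gent replicate 2 (edgeR adjusted p = 0.0199, not called). Cox6b1 had 67.1 to 88.4 CPM in Gent+Fos OE and 91.3, 177 and 98.7 CPM in Gent, and a log2FC of −0.63 ± 0.22 (SE, −0.27 without Gent replicate 2). Per kb of Length, Cox6b1 stood at a level of 112 CPM per kb with Fos overexpression and Cox6b2 at 21.7 CPM per kb. Cox7a1, the isoform typical of heart and skeletal muscle, had 2.34 to 2.96 CPM in Gent+Fos OE and 1.88, 7.02 and 1.82 CPM in Gent. Its log2FC of −0.45 ± 0.44 (SE) became 0.49 without Gent replicate 2. Cox7a2, the widely expressed form, had a log2FC of −0.60 ± 0.21 (SE, −0.27 without Gent replicate 2).

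**Figure D2:**
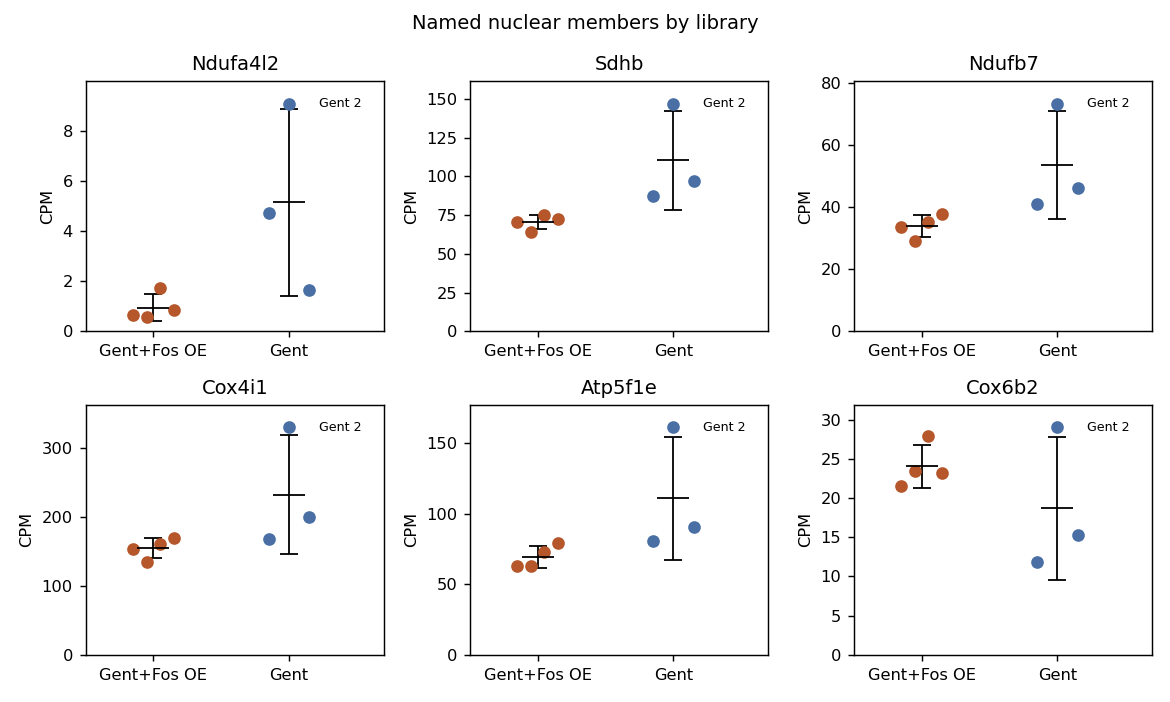
CPM of 6 nuclear members, with points for libraries and bars for the mean ± SD of 4 Gent+Fos OE and 3 Gent libraries. Gent replicate 2 is the highest library in every panel, and Cox6b2 alone has its higher mean in Gent+Fos OE.

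**Figure D3:**
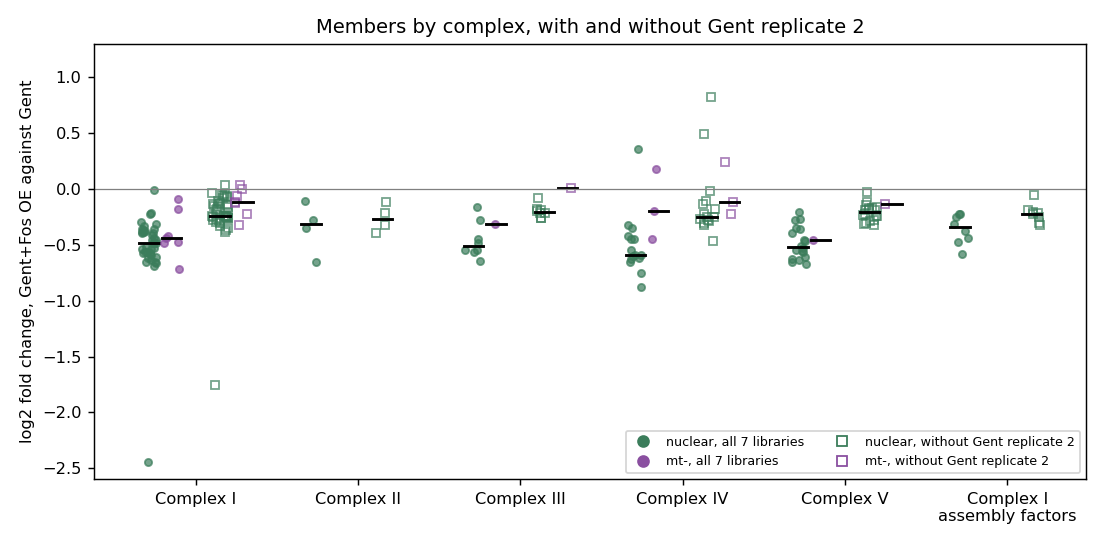
The log2FC of each member by complex, with filled circles for all 7 libraries, open squares without Gent replicate 2, and black bars for medians. The nuclear medians lie between −0.59 and −0.31 with all libraries and between −0.27 and −0.20 without Gent replicate 2.

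Many respiratory chain genes are short, and short genes were lower in Gent+Fos OE in general. The median Length of the nuclear members, the summed exon length in the files, was 1578 bases, against 4409 for other tested protein-coding genes. Among those other genes, the median log2FC was −0.40 at over 750 to 1500 bases, −0.24 at over 1500 to 3000 bases, −0.08 at over 3000 to 4500 bases and 0.16 at over 4500 bases. Nuclear members in these bands had medians of −0.50 (32 genes), −0.49 (28 genes), −0.34 (14 genes) and −0.31 (7 genes). Up to 750 bases the medians were −0.54 for 11 nuclear members and −0.55 for 121 other genes, and 72.7% and 44.6% of them were lower at the unadjusted limit. Each nuclear member was set beside the 200 other protein-coding genes nearest in Length: the members lay a median of 0.16 below them (difference −0.16), and 75 of 92 were below. The difference was −0.09 without Gent replicate 2. Of the genes nearest in Length to any nuclear member, 21.8% were lower at the unadjusted limit, and 18.4% were lower with groups that did not overlap. The mt- members had a median difference of 0.04, with 4 of 12 below. With a length trend taken out of each library, the median log2FC was −0.38 for nuclear and −0.27 for mt- members. After the same step, genes of similar Length had −0.10 (to nuclear members) and −0.24 (to mt- members). Across the other protein-coding genes, log2FC still went with Length (Spearman correlation 0.148). With Gent replicate 2 also left out, nuclear and mt- members had −0.21 and −0.11, and their genes of similar Length −0.07 and −0.16.

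**Figure D4:**
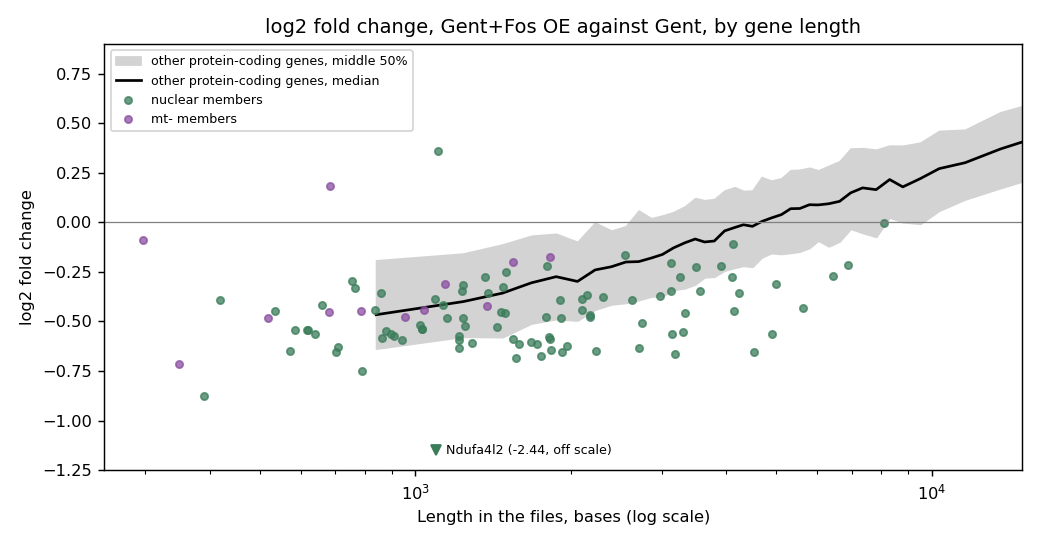
The log2FC of members against Length on a log axis, with the median (line) and the middle 50% (grey) of 15074 other protein-coding genes in bins of Length. From about 1500 bases upward most nuclear members lie below the line, and 4 of the 12 mt- members lie below the genes nearest to them in Length.

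The mitochondrial genome encodes 13 proteins, and their genes fell into a high and a low set by level. The high set comprised mt-Co1, mt-Cytb, mt-Nd1, mt-Nd2, mt-Nd4, mt-Nd5 and mt-Nd6, whose levels in Gent+Fos OE ran from 785 to 5261 CPM per kb. In the low set, mt-Co2, mt-Co3, mt-Atp6, mt-Nd3 and mt-Nd4l had 9.78 to 64.3 CPM per kb, and mt-Atp8 had too few counts to be kept. The low set comprised the genes whose sequence is copied in the nuclear genome. In mt-Nd3, 98.8% of the 100-base windows had an exact copy outside the mitochondrial genome, and in the other low genes 100%. In the high set this share was 60.8% for mt-Nd4, 30.8% for mt-Co1, 3.2% for mt-Nd2 and 0 for the others. Reads with more than 1 place in the genome were not counted, so values of the low set come from the reads that were left. The first 100 bases of mt-Co2, mt-Co3 and mt-Co1 show this, with capitals where the best nuclear match in GRCm39 has another base.
mt-Co2, copied at chr1:24653963-24654646 over all 684 bases: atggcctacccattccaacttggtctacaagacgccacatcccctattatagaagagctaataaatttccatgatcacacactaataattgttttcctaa
mt-Co3, copied at chr1:24652269-24653052 over all 784 bases: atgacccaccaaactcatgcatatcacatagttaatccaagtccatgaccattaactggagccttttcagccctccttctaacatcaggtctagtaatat
mt-Co1, nearest match at chr2:22478115-22479659 with 37 differences in 1545 bases: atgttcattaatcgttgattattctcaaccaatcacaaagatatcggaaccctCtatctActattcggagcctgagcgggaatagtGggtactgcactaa

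**Figure D5:**
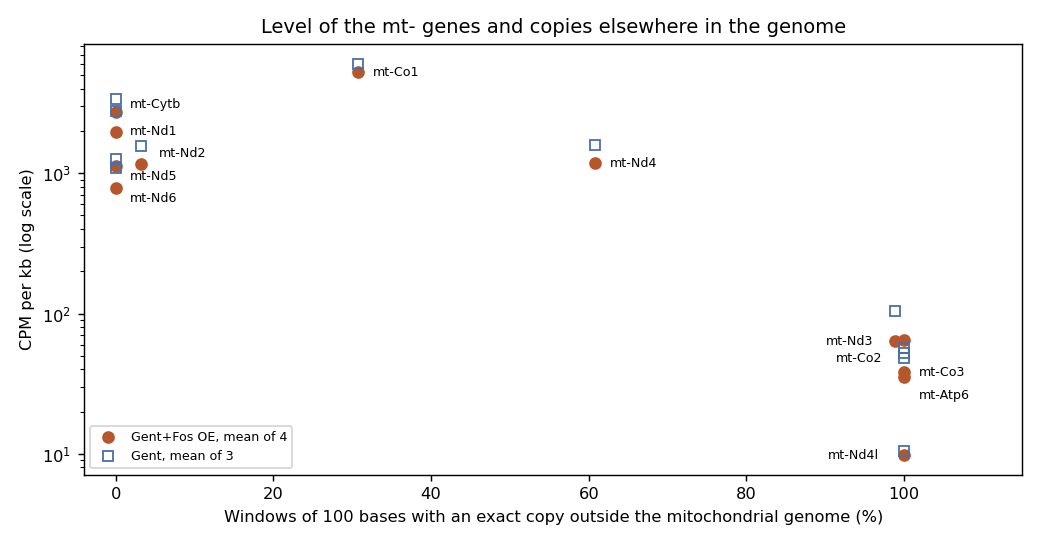
Mean level of the 12 mt- genes in CPM per kb on a log axis, against the percentage of 100-base windows with an exact copy elsewhere. The 5 genes at 98.8% or more reach at most 104 CPM per kb in either group, and the other 7 have at least 785 CPM per kb.

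No mt- gene was called by edgeR, and at the unadjusted limit 4 of 12 were lower (mt-Nd1, mt-Nd3, mt-Nd6 and mt-Co3) and 0 higher. This share of 33.3% stands beside 13.4% lower and 11.1% higher among all genes, and 36.0% lower among the protein-coding genes nearest to the mt- members in Length. The median log2FC of mt- members was −0.43 and became −0.12 without Gent replicate 2, with 0 of 12 past the unadjusted limit. Gent replicate 2 was the highest library for 10 of the 12. The groups did not overlap for 1 of the 12 (8.33%), mt-Co3, which was lower and belongs to the low set. Of all genes 12.2% were lower without overlap, and of the genes nearest to the mt- members in Length 25.1%.

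In complex I, mt-Nd1, a core membrane subunit, had 1810, 1803, 1971 and 1999 CPM in Gent+Fos OE and 2124, 3823 and 1969 CPM in Gent. Its log2FC was −0.48 ± 0.21 (SE, edgeR adjusted p = 0.195), and −0.12 without Gent replicate 2. The other high core subunits had a log2FC of −0.44 ± 0.23 (SE) for mt-Nd2, −0.42 ± 0.21 (SE) for mt-Nd4 and −0.17 ± 0.17 (SE) for mt-Nd5. Without Gent replicate 2 these were −0.00, −0.06 and 0.04. The mt-Nd6 gene, the only protein gene on the light strand, had 385 to 443 CPM in Gent+Fos OE and 485, 825 and 398 CPM in Gent. Its log2FC was −0.48 ± 0.21 (SE), and −0.12 without Gent replicate 2. Counting ignored strand, so reads from the opposite strand across mt-Nd6 cannot be told apart from its own.

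In complex III, mt-Cytb, the cytochrome b subunit, had 2800, 3117, 3370 and 3232 CPM in Gent+Fos OE and 3148, 5470 and 3047 CPM in Gent. Its log2FC was −0.31 ± 0.20 (SE), and 0.01 without Gent replicate 2. In complex IV, mt-Co1, the catalytic subunit and the gene with the most counts, had 7606, 7654, 8694 and 8558 CPM in Gent+Fos OE and 9183, 10420 and 8408 CPM in Gent. The groups overlapped and its log2FC was −0.20 ± 0.12 (SE), and −0.12 without Gent replicate 2. For the copied genes, the log2FC was 0.18 ± 0.21 (SE) for mt-Co2, −0.45 ± 0.19 (SE) for mt-Co3, −0.45 ± 0.23 (SE) for mt-Atp6 of complex V, −0.71 ± 0.26 (SE) for mt-Nd3 and −0.09 ± 0.25 (SE) for mt-Nd4l. Leaving out Gent replicate 2 gave 0.25 for mt-Co2, −0.22 for mt-Co3, −0.14 for mt-Atp6, −0.32 for mt-Nd3 and −0.22 for mt-Nd4l.

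The mt- genes together took 1.74, 1.84, 1.98 and 1.94% of library counts in Gent+Fos OE and 1.99, 2.86 and 1.86% in Gent. Gent replicate 2 was the highest and the other Gent libraries lay within or just above the range of Gent+Fos OE. In that library mt-Co1 made up 35.5% of the mt- counts, where the other 6 libraries had 42.4 to 45.6%. The 92 nuclear members together took 0.623 to 0.722% of counts in Gent+Fos OE and 0.699, 1.11 and 0.809% in Gent.

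The factors that transcribe and copy mitochondrial DNA were measured as a list of 16 genes, of which 0 were called and 1 was lower at the unadjusted limit, with a median log2FC of −0.09. That gene was Mgme1, a nuclease of mitochondrial DNA, with 13.4 to 14.8 CPM in Gent+Fos OE, 17.6 to 19.0 CPM in Gent and a log2FC of −0.39 ± 0.13 (SE). Among 11 regulators of nuclear respiratory genes, 0 passed either limit, and the smallest p belonged to Pparg, a nuclear receptor, at −0.74 ± 0.36 (SE). Of 14 genes for mitochondrial RNA processing, 4 were lower at the unadjusted limit, led by Fastkd5 (−0.72 ± 0.22, SE). Of 41 assembly factors without a member prefix, 11 were lower, led by Cox10 (−0.54 ± 0.16, SE), which makes heme for complex IV.

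Among 19 genes for electron carriers and other inputs, 8 were lower and 1 was higher, led by Sqor (−0.49 ± 0.14, SE), which feeds electrons from sulfide into ubiquinone. Of 17 citric acid cycle genes, 4 were lower, led by Idh2 (−0.41 ± 0.14, SE). Glycolysis, which makes ATP outside mitochondria, had 12 of 19 genes lower, led by the lactate exporter gene Slc16a3 (−0.77 ± 0.20, SE) and a median of −0.41. Of 8 adenine nucleotide and related carriers, 5 were lower, led by Slc25a5 (−0.59 ± 0.16, SE), which exchanges ADP for ATP. Without Gent replicate 2, the genes lower at that limit numbered 6 in glycolysis (median −0.21), 4 among the assembly factors (median −0.12), 3 among the electron carriers (median −0.20), 3 among the adenine nucleotide and related carriers (median −0.26), 2 each in RNA processing (median −0.14) and the citric acid cycle (median −0.11), and 1 each among the transcription and copying factors (median −0.02) and the regulators (median −0.01). The value for Slc25a5 was then −0.36. Among all genes, 13.4% were lower at the unadjusted limit with all libraries and 9.38% without Gent replicate 2. In all 8 lists 0 genes were called by edgeR.

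Of 49 cell type markers tested, 4 were called, namely Otog (supporting cells, higher), Cd14 (macrophages, lower), and Tyrp1 and Dct (melanocytes, both lower). All 7 macrophage markers had a negative log2FC, and their summed level was 2632 to 4132 CPM in Gent+Fos OE and 5277, 6152 and 4352 CPM in Gent. All 5 melanocyte markers had a negative log2FC, with sums of 31.2 to 36.8 CPM in Gent+Fos OE and 67.5, 112 and 90.1 CPM in Gent. Gent replicate 2 had the highest sum of both lists, and without it the median log2FC was −0.69 for macrophage and −1.35 for melanocyte markers. The 7 supporting cell markers summed to 1372 to 1968 CPM in Gent+Fos OE and 875 to 1155 CPM in Gent, and the 7 hair cell markers to 649 to 829 CPM and 569 to 697 CPM. The 6 mesenchyme markers summed to 6428 to 9787 CPM and 7923 to 11692 CPM. Of 4 brown adipocyte markers 1 was tested and of 6 muscle markers 3, at sums of at most 10.4 CPM in any library. Median log2FC values were −0.01 for 4 endothelial, 0.09 for 4 neuronal and −0.25 for 4 Schwann cell and glial markers, and 1 erythroid marker was tested. The part of these cell types in the respiratory chain values was not tested.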

How the data were processed

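RNA sequencing of 4 Gent+Fos OE and 3 Gent libraries was analysed. The authors deposited raw read counts per gene, made per the file headers by featureCounts 2.0.6 on an mm10 annotation, with reads of a pair counted separately, no strand setting, and no reads that had several places or genes. The submitters' processing notes name Trim Galore 0.6.10, HISAT2 2.2.1 and DESeq2 1.34.0, whereas the methods name mm39 and another featureCounts version. Coordinates are those of the files, and symbols came from GENCODE vM39 by identifier.

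Genes kept by filterByExpr (17155) were scaled by TMM and compared in edgeR 4.0.16 (R 4.3.3) by its quasi-likelihood F-test, and p-values were adjusted over all genes by the Benjamini-Hochberg method. The SE is the absolute log2FC over the square root of F. CPM values are TMM-scaled. DESeq2 1.42.0 (genes with at least 10 counts in all) and limma 3.58.1 served as alternatives, beside other scalings and filters, a loess length trend (span 0.3) taken out, a replicate block and each library left out. Leaving out Gent replicate 2 together with the length trend was chosen after seeing the data. Exact copies were searched with BLAST+ 2.17.0 in GRCm39, in 100-base windows of the canonical transcript. The analysis was tested on simulated data.

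The members and lists were chosen with earlier results of these data known. Named genes were all mt- genes, called members, the highest and lowest log2FC of each complex, the 3 smallest p in each direction, isoform pairs, Fos, and the smallest p of each pathway list. Library totals were 27879889 to 34335214 counts. Both the spread between libraries and, for members with few counts, counting error limit the precision. Other assays of the study were not analysed here.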

Additional observations from a re-analysis of the deposited data

Results flagged for a closer look

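In the group of 4 Gent+Fos OE libraries, 3 of 41 values checked had 1 library far from the other 3 (by Dixon's criterion at 95% confidence), and chance flags about 1 in 20 groups. In mt-Co3, Gent+Fos OE replicate 1 had 23.0 CPM beside 31.9 to 32.7 CPM in the others. In mt-Nd5, the same library had 1919 CPM beside 2089 to 2111 CPM. In Fos, Gent+Fos OE replicate 3 had 167 CPM beside 149 to 151 CPM. The group of 3 Gent libraries, Gent replicate 2 included, was not checked this way.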

How the results depend on the processing

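No nuclear or mt- gene was called in any fit that left out 1 library, and the median log2FC of nuclear members stayed negative in all 18 alternatives, from −0.66 to −0.22 with each library left out. Over the same fits, the mt- median ran from −0.58 to −0.12, the nuclear members lower at the unadjusted limit from 24 (Gent replicate 2 out) to 78 (Gent replicate 1 out), those higher from 0 to 1, the mt- genes past that limit from 0 to 8, and all genes called from 5 to 138. The nuclear difference from genes of similar Length ran from −0.20 to −0.09, and the difference in mt- share of counts from −0.549 to −0.0503 percentage points around −0.361. DESeq2 called 600 genes and 1 nuclear member lower, and the fit with no filter on low counts called 204 and 1, with 7 mt- genes past the unadjusted limit. Quality weights gave 961 called genes, 1 nuclear member lower and 1 higher (47 lower and 1 higher at the unadjusted limit), a nuclear median of −0.26 beside −0.48, an mt- median of −0.057 and 1 mt- gene past the limit. limma-voom gave 2 mt- genes past the limit. With the length trend removed, 130 genes were called and 1 nuclear member was higher at the unadjusted limit. With Gent replicate 2 also left out, 175 genes were called, 25 nuclear members were lower and 1 higher at the unadjusted limit, 1 mt- gene passed it, and the mt- median was −0.11. A replicate block gave 0 called genes, 40 nuclear members lower and 2 mt- genes past the unadjusted limit, a nuclear median of −0.47, and a Fos log2FC of 2.03 that was no longer called. The block with the length trend removed gave 1 nuclear member higher. Libraries that share a replicate number had correlations of 0.064, −0.038 and 0.032 between their deviations from the group means. No pairing by number was seen in these values, which cannot exclude it with so few libraries. Of 540 fits of the 30 named members, 519 kept their direction and 21 in 8 genes turned. Quality weights turned mt-Nd2 (0.001), mt-Co2 (−0.033), mt-Nd5 (0.14), mt-Cytb (0.019), Cox4i2 (0.066) and Cox7a1 (0.46). Leaving out Gent replicate 2 with the length trend removed turned mt-Nd5 (0.082), mt-Cytb (0.005) and Cox7a1 (0.37), and the block with the length trend turned mt-Nd5 (0.019). DESeq2 (0.001) and RLE factors (0.002) turned Ndufs1. With each library left out, mt-Co2 ran from −0.007 to 0.29, mt-Nd4l from −0.22 to 0.084, mt-Nd5 from −0.34 to 0.037, mt-Cytb from −0.46 to 0.01, Ndufs1 from −0.049 to 0.019 and Cox7a1 from −0.77 to 0.49. The cause was not tested for any of these. Counts of 18 to 125 in the lowest library limit Ndufa4l2, Cox7a1, Cox4i2, mt-Nd4l and Cox5b-ps.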

Other observations

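Nuclear members without copied windows and without exonic overlap with another gene numbered 46. Their median log2FC was −0.51, with 45 of 46 negative, and −0.24 without Gent replicate 2. Across the 92 nuclear members, the Spearman correlation of log2FC with Length was 0.318, against 0.491 across 15074 other protein-coding genes, which share the libraries and are not independent. Without Gent replicate 2 these were 0.048 and 0.305.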
